A study of Mus musculus with 6 samples.

Results

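The sebaceous gland lipid genes examined here are Scd1, Scd3, Elovl3, Cyp2g1, Plin2, Dgat2, Soat1, Far2, Krt79 and Mc5r. They were followed in mouse skin RNA on 6 single-channel Affymetrix arrays, 3 wild-type and 3 knock-in. Members are the probe sets whose only gene symbol in the platform annotation is that of one of these 10 genes. The rule found 13 probe sets for 9 of the 10 genes, among 45037 non-control probe sets and 18193 genes. Soat1, the enzyme that forms cholesteryl esters, was not analysed here, because no probe set carried its name.

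The wild-type samples are labelled as the C57BL/6 strain with genotype WT, and the knock-in samples as KAB6 on the same C57BL/6 background with genotype KA. The gene altered in the knock-in, its allele, and the age, sex and treatment of the mice are not given in the labels, and neither is the skin site. It is also not stated that each sample is a separate mouse, so the p-values measure the spread between these samples, which may be technical. The value of a probe set is its MAS5 signal, a linear brightness scaled to a common level on every array.

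Sebaceous glands open into the hair follicle and release their product by the bursting of whole cells. Sebocytes fill with lipid droplets as they mature, and sebum is rich in triglycerides, wax esters and steryl esters. Fatty acids are desaturated and elongated, some are reduced to fatty alcohols, and acyltransferases join the products into neutral lipids that are stored in droplets under a protein coat. The signals are of whole skin, so fewer cells of a type and less RNA per cell cannot be told apart.

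The members moved in both directions. In a fit over 11670 genes, each represented by its brightest probe set, Cyp2g1, Elovl3, Plin2 and Far2 rose in knock-in, and Scd3 and Dgat2 fell. That is 4 of 9 members higher and 2 lower, where 14.8% of all genes tested were called higher and 16.3% lower (limma, Benjamini-Hochberg adjusted p under 0.05). Of the genes called, 47.6% were higher, and 68.1% were with each array centred on its median. Scd1, Krt79 and Mc5r did not pass in that fit. The median log2 difference was 0.13 for the 9 members and -0.02 for all genes tested. In a second fit over 23127 probe sets, 5 of the 13 member probe sets were called higher and 5 lower, against 13.0% and 17.3% of all probe sets tested. The knock-in and wild-type signals did not overlap for 10 of the 13, and for 46.4% of all probe sets. All 13 passed the filter on dim probe sets. Log2 differences, knock-in less wild-type, are of log2(signal + 16) with their standard error, signals are given with their SD (n = 3 per group), and the members' adjusted p-values are from limma over all probe sets.

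**Figure D1:**
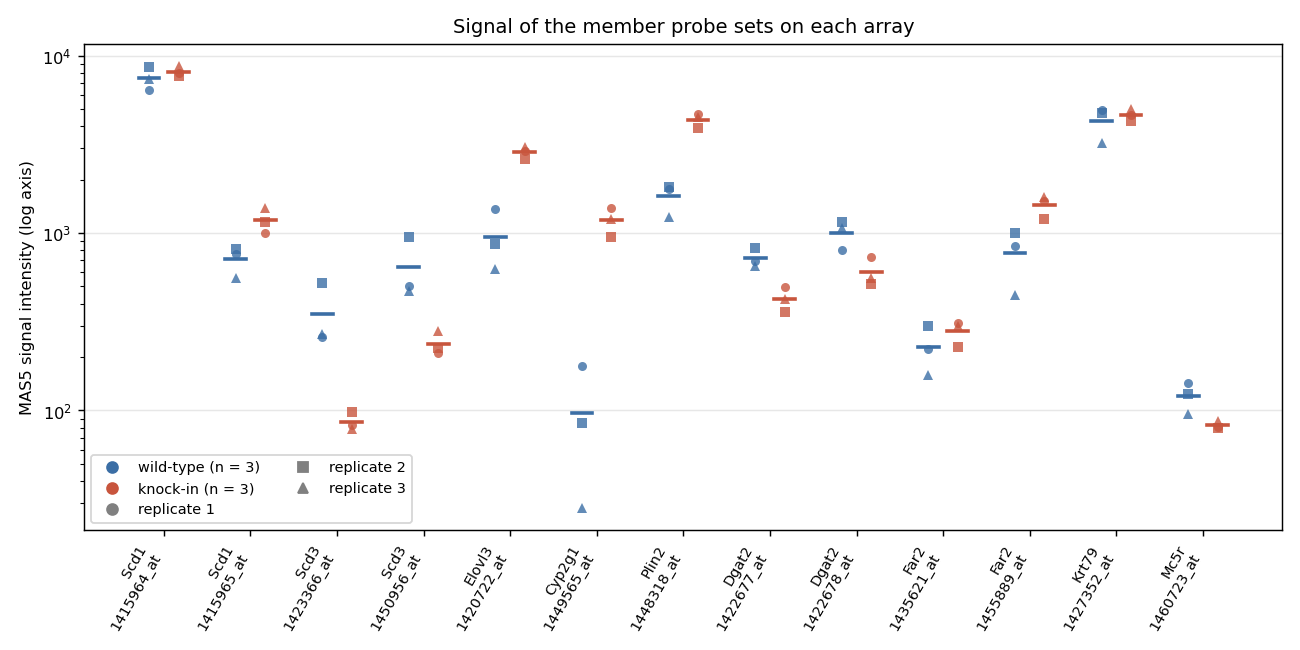
MAS5 signal intensity (log axis) of each of the 13 member probe sets on the 3 wild-type (blue) and 3 knock-in (red) arrays, with replicates 1, 2 and 3 as circles, squares and triangles and bars at the group means. Cyp2g1, Elovl3 and Plin2 lie higher on every knock-in array than on any wild-type array, both Scd3 and both Dgat2 probe sets lie lower, and Krt79 and the brighter Scd1 probe set overlap between the groups.

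The arrays differed between the groups beyond these genes. Pearson's r across the genes tested was between 0.975 and 0.985 within a group and between 0.880 and 0.917 across groups. Xist, expressed from the inactive X chromosome, read 29.7 ± 2.44 on wild-type and 3730 ± 282 on knock-in arrays, while the Y-linked Eif2s3y had 687 ± 42.6 and 5.04 ± 0.544. For every member, an effect of genotype and one of sex cannot be told apart. The 5' control for 18S ribosomal RNA was also lower in knock-in on every array, at 1848 ± 493 against 481 ± 301, as was the middle one (1378 ± 350 against 652 ± 255), while the 3' one overlapped (399 ± 121 against 265 ± 42.8). The part of these differences in the members' results was not tested.

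Of the members called in the fit over genes, Scd3, Plin2 and Far2 have an entry in the RefSeq promoter table (build GRCm38.p6). Entries were used for 5 of the 10 genes. The search left out a chromosome, and no sequence of Mc5r was read. The 250 bases before each start are shown, 5′ to 3′ on the gene's strand, so that the sequence next to a member that fell can be set beside those of members that rose. Capitals mark matches, on either strand, to 6 motifs: the TATA box spelled TATAAA or else TATATA, the CCAAT box, the GC box GGGCGG, the E-box CACGTG and the nuclear receptor half-site AGGTCA.
Plin2 (rose; chr4:86670060-86670309, minus strand): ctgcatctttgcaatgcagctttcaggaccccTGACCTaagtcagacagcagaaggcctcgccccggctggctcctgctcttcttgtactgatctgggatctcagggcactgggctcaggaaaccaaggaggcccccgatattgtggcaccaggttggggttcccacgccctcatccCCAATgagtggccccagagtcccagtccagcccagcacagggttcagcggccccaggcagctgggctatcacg
Far2 (rose; chr6:148047166-148047415, plus strand): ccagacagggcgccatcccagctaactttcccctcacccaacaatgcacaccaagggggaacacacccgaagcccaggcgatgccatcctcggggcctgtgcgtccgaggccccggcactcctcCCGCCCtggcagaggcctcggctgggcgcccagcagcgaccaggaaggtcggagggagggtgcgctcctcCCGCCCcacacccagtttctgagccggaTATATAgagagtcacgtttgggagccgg
Scd3 (fell; chr19:44203038-44203287, plus strand): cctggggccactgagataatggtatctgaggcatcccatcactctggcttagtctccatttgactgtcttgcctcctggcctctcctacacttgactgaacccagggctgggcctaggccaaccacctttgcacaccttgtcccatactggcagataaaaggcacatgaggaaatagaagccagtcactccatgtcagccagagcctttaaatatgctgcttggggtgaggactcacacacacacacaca

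The Plin2 window holds AGGTCA, the core letters bound by many nuclear receptors, on the opposite strand 218 bases before the start, and CCAAT 73 bases before it. In the Far2 window TATATA begins 28 bases before the start, and GGGCGG, the GC box, occurs on the opposite strand 126 and 56 bases before it. None of the 6 motifs occurs in the Scd3 window, which says only that these letters are not there. The window of Krt79, a member that did not pass, is not shown and holds none of them either. Over all 32851 windows of the table, 14.0% hold AGGTCA, 33.8% CCAAT, 5.25% TATATA, 32.7% GGGCGG, 12.4% TATAAA and 6.02% CACGTG. None of the motifs overlap each other in the windows shown.

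Desaturases introduce the double bond of monounsaturated fatty acids, and Scd1 is the main such enzyme of sebaceous glands, which are underdeveloped in mice without it. The brighter Scd1 probe set had signals of 6406, 8626 and 7412 on the wild-type arrays and 7987, 7647 and 8721 on the knock-in arrays. These overlap, and the log2 difference of 0.13 ± 0.11 did not pass (adjusted p = 0.433). Its signal stood at the 99.6 to 99.8 percentile of the arrays. The dimmer Scd1 probe set had 762, 817 and 557 in wild-type and 1002, 1157 and 1383 in knock-in. Every knock-in value of the dimmer probe set was above every wild-type value, and it rose by 0.72 ± 0.16 (adjusted p = 0.00933). The pair of Scd1 probe sets thus disagree on the call, and with the mean over both, Scd1 passed (log2 difference 0.42, adjusted p = 0.0404).

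Scd3, a second desaturase of skin, fell on both of its probe sets. On the brighter one the wild-type signals were 503, 951 and 473 and the knock-in signals 212, 224 and 279. All 3 knock-in values were below the lowest wild-type value, a 2.69-fold lower mean with a log2 difference of -1.31 ± 0.24 (adjusted p = 0.00352). On the dimmer one the wild-type signals were 260.2, 521 and 269 and the knock-in signals 82.4, 97.4 and 78.3. The mean was 4.07-fold lower in knock-in, with a log2 difference of -1.78 ± 0.23 (adjusted p = 7.26e-04). Wild-type replicate 2 stood above the other wild-type arrays on both Scd3 probe sets, and without it the log2 difference of the brighter one was -0.99.

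Scd1, Scd2, Scd3 and Scd4 are neighbours, with 0 other protein-coding genes between them in the RefSeq table. Their sequences are similar, so a probe set of one may also read another. Scd2, the desaturase best known from brain, fell on 2 of its 3 probe sets, with log2 differences of -0.48 ± 0.12 and -0.46 ± 0.14. The dimmest had -0.18 ± 0.17 and did not pass. Neither Scd2 call held without replicate 3 of either group. With 1 array left out, the dimmer of these 2 probe sets passed only without wild-type replicate 2 (limma, adjusted p = 0.00669). In the fit over genes Scd2 did not pass with median centring (adjusted p = 0.0638). Within arrays, the log2 ratio of the brighter Scd3 to the dimmer Scd1 probe set was -0.20 ± 0.40 in wild-type and -2.23 ± 0.06 in knock-in (SD, n = 3). The exact two-sided permutation p of this shift of -2.03 was 0.1, the smallest that 3 arrays against 3 allow, and 0.12 after adjustment over 12 ratios of related probe sets, chosen after their values were seen. Against the brighter Scd1 probe set the shift was -1.43 and against the brightest Scd2 probe set -0.83, each also with an exact p of 0.1.

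Elovl3 lengthens saturated and monounsaturated fatty acids to very long chains in sebaceous glands and brown fat. Its probe set had signals of 1366, 863 and 626 in wild-type and 2909, 2620.3 and 3071 in knock-in. The lowest knock-in array was above the highest wild-type array, and the knock-in arrays lay closer together than the wild-type ones. Elovl3 rose 3.01-fold in mean signal, with a log2 difference of 1.64 ± 0.23 (adjusted p = 9.48e-04).

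Other elongases had smaller differences than Elovl3. Elovl4, which makes the ultra-long acids of barrier ceramides, rose on both probe sets, by 0.45 ± 0.14 on the brighter and by 0.77 ± 0.17 on the dimmer. The call of the brighter one was lost without replicate 1 or 3 of either group (adjusted p = 0.0681 and 0.131 for wild-type, 0.0985 and 0.0957 for knock-in). Elovl7 rose on 4 of 6 probe sets, with 0.63 ± 0.11 on its brightest. Elovl1 rose on 2 of 4, by 0.37 on each, and its brightest probe set did not pass (0.27, adjusted p = 0.0626). Without 1 array, calls were lost on both Elovl1 probe sets that had passed and on 2 of the Elovl7 ones, not the brightest. Elovl5 had 0.19 and 0.13 on its 2 probe sets, and neither passed. Of the 3 probe sets of Elovl6, which extends palmitate to stearate, the dimmest, which passed the filter through the wild-type arrays alone, fell by 0.97, and the others (-0.36 and -0.20) did not pass.

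Among the enzymes that build esters, Far2 rose and Dgat2 fell. Far2 reduces fatty acyl-CoA to the fatty alcohols of wax esters. On the brighter probe set its signals were 849, 1005 and 449 in wild-type and 1522, 1204 and 1597 in knock-in. The groups did not overlap, the mean was 1.88-fold higher in knock-in, and the log2 difference was 0.96 ± 0.25 (adjusted p = 0.0194). Without knock-in replicate 1 or 3 this call was lost (adjusted p = 0.0543 and 0.0775), and without wild-type replicate 3, at 449 the lowest, the difference was 0.62. The dimmer probe set had 223, 298 and 159 in wild-type and 311, 227 and 298 in knock-in. Those values overlap, and the log2 difference of 0.31 ± 0.21 did not pass (adjusted p = 0.286). Far1, which shares this reaction, rose on 4 of 5 probe sets, by 0.65 ± 0.09 on the brightest and by 1.10 ± 0.12 on another. The within-array ratio of the brighter Far2 to the brightest Far1 probe set shifted by 0.31 (exact permutation p = 0.6), less than the spread of that ratio in wild-type (SD 0.63). With the dimmer Far2 probe set it shifted by -0.34 (exact permutation p = 0.4).

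Dgat2 attaches the last acyl chain of triglycerides. On the brighter probe set its signals were 801, 1151 and 1068 in wild-type and 729, 518 and 555 in knock-in, and on the dimmer one they were 693, 824 and 649.9 against 495, 360.1 and 427. No knock-in value reached the lowest wild-type value on either probe set. The log2 differences were -0.73 ± 0.16 (adjusted p = 0.00953) and -0.74 ± 0.14 (adjusted p = 0.00377). In the fit over genes, Dgat2 had an adjusted p of 0.0113, and of 0.0508 without wild-type replicate 3.

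Dgat1 catalyses the same step as Dgat2 and went the other way. Its brighter probe set averaged 404 ± 89.5 on wild-type and 648 ± 46.6 on knock-in arrays and rose by 0.68 ± 0.15 (adjusted p = 0.00997), and its dimmer probe set (0.34) did not pass. In the fit over genes the Dgat1 call was lost without knock-in replicate 3 (adjusted p = 0.0502). The within-array log2 ratio of the dimmer Dgat2 to the brighter Dgat1 probe set was 0.83 ± 0.19 in wild-type and -0.59 ± 0.19 in knock-in, a shift of -1.42 that did not overlap between the groups (exact permutation p = 0.1, the smallest possible). With the brighter Dgat2 probe set in its place the shift was -1.41.

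**Figure D2:**
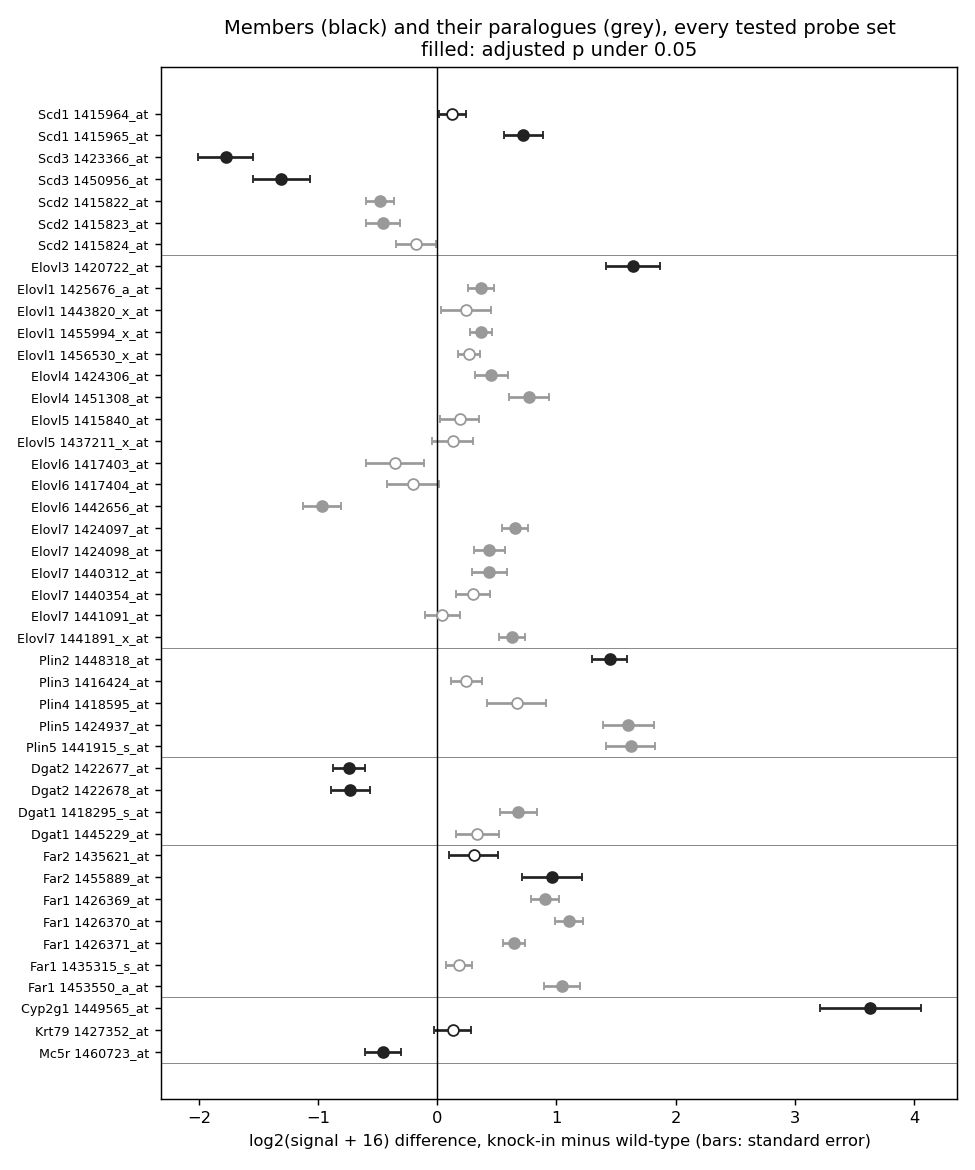
Log2(signal + 16) difference, knock-in minus wild-type, for every tested probe set of the members (black) and their paralogues (grey), with bars for the standard error and filled points for an adjusted p under 0.05. Scd3 and Scd2 lie to the left of 0 and the dimmer Scd1 probe set to the right, Dgat2 and Dgat1 lie on opposite sides, and Elovl3 (1.64) lies to the right of all other elongase probe sets.

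Plin2 coats lipid droplets in sebocytes and in most other cells that store fat. Its signals were 1771, 1823 and 1229.7 in wild-type and 4654, 3912 and 4497 in knock-in. The lowest knock-in value was more than the highest wild-type value, and the mean was 2.71-fold higher. The log2 difference was 1.45 ± 0.15 (adjusted p = 1.94e-04). Plin5, the coat protein of oxidative tissues, was also higher, by 1.62 ± 0.21 and 1.60 ± 0.21 on its probe sets, from mean signals of 27.9 ± 10.5 and 20.4 ± 8.62. Both Plin5 probe sets were below the array's median on all 3 wild-type arrays and passed the filter through the knock-in arrays, so their difference is given as a description. Plin3 (0.24) and Plin4 (0.67) did not pass. In the fit over genes Plin4 passed without wild-type replicate 1 (0.32, adjusted p = 0.0442) or 2 (0.86, adjusted p = 0.0427).

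Other cells of skin also make Plin2, and their markers moved with it in part. Of 9 macrophage markers 6 rose and 0 fell by the adjusted p, and 7 and 0 at an unadjusted p under 0.05 (limma). With 1 array left out, between 4 and 7 rose. Their summed signal ranged from 6228 to 9500 in wild-type and from 12465 to 19343 in knock-in. Cd14 rose by 4.20 and Cd163 by 2.70, while the macrophage receptors Adgre1 (0.14) and Csf1r (0.07) did not pass. Of 8 adipocyte markers 2 rose, Nat8l (1.65) and Pck1 (1.16), and Aoc3 fell (-0.49). Among all genes tested, 14.8% were called higher and 16.3% lower. The Aoc3 call was lost without any 1 array other than wild-type replicate 1, and without that array Adipoq fell too (-0.65). The summed adipocyte signal overlapped, at 2303 to 4497 in wild-type and 3010 to 4279 in knock-in, and Adipoq, Lep and Retn did not pass in the fit of all 6 arrays. No value of these markers was listed at 0. The part of either cell type in the Plin2 difference was not tested.

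Cyp2g1, a cytochrome P450 known from the olfactory lining, had the largest difference of the 9 members. Its signals were 177, 84.8 and 28.1 in wild-type and 1382, 955 and 1198 in knock-in. All knock-in values stood far above all wild-type values, while the wild-type arrays themselves differed 6.30-fold from lowest to highest. The mean was 12.2-fold higher in knock-in and the log2 difference was 3.63 ± 0.43 (adjusted p = 3.86e-04). The added offset of 16 bears on the low wild-type values, since an offset of 1 gave 3.93 and one of 64 gave 3.04. Without wild-type replicate 3 it was 3.08, and without wild-type replicate 1 it was 4.15. On wild-type replicate 3 the Cyp2g1 signal was below the array's median.

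Krt79, a keratin of the gland's duct and of the upper follicle, had signals of 4936, 4771 and 3195 in wild-type and 4625, 4274 and 4986 in knock-in. The groups overlapped, with a log2 difference of 0.13 ± 0.16 that did not pass (adjusted p = 0.564) and was -0.07 without wild-type replicate 3.

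Mc5r, a melanocortin receptor of sebocytes and other exocrine glands, was dim. Its signals were 144, 123 and 95.1 in wild-type and 81.1, 79.9 and 87.3 in knock-in. Each knock-in value was below each wild-type value, with a log2 difference of -0.45 ± 0.15. The adjusted p lay at the threshold, at 0.0483 in the fit over probe sets and 0.0501 in the fit over genes. Over probe sets the call was lost without any 1 array other than wild-type replicate 3, with limma adjusted p between 0.0914 and 0.131. Counting these and the other alternatives that keep probe sets apart, the Mc5r call was lost in 10 and kept in 5. Of the other melanocortin genes 7 of 11 are on the array and 2 were bright enough to test. The receptor Mc1r, which sets pigment type in melanocytes, fell (-0.87), from a signal of 60.7 ± 5.85 to 26.6 ± 10.3. The accessory protein Mrap rose (1.75), from 54.2 ± 38.2 to 191 ± 45.7, and did not pass without knock-in replicate 3 (adjusted p = 0.0724). Wild-type replicate 1 read 10.2 for Mrap, and without it the difference was 1.15.

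Wild-type replicate 3 was the lowest wild-type array for 10 of the 13 member probe sets and for 28.9% of all probe sets tested. Knock-in replicate 2 was the lowest knock-in array for 10 of the 13 and for 32.2% of all probe sets tested. The highest wild-type signal was 2.18 times the lowest for Elovl3 and 2.24 times for the brighter Far2 probe set, and 1.17 and 1.33 times among knock-in arrays. The other 3, for which wild-type replicate 1 was the lowest, were the brighter Scd1, the dimmer Scd3 and the brighter Dgat2 probe sets.

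**Figure D3:**
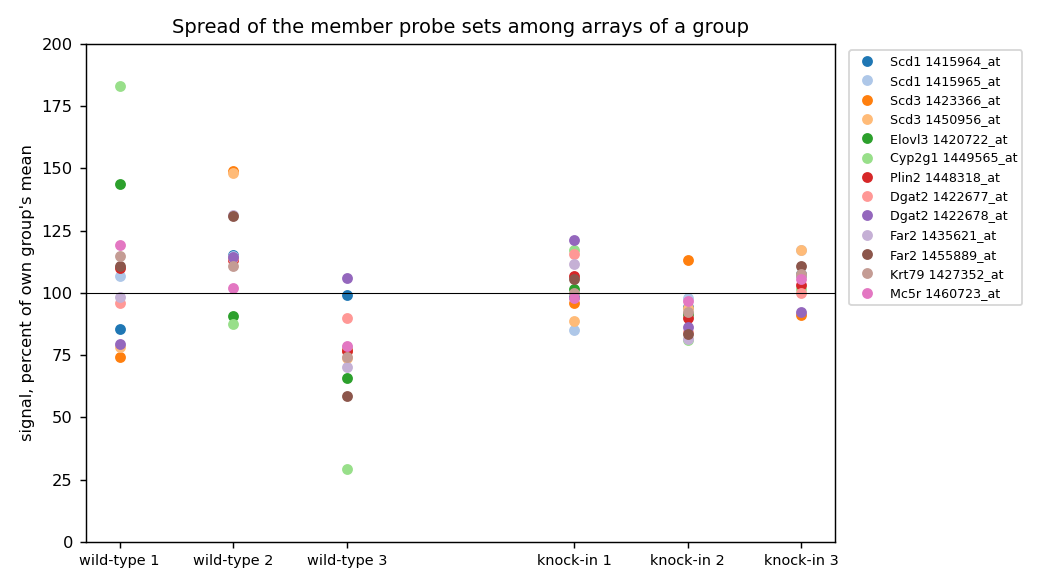
Signal of each member probe set on each array as a percent of the mean of its own group of 3 arrays, with 1 colour per probe set. Most members lie below 100 on wild-type replicate 3, Cyp2g1 spreads the most in wild-type, and the knock-in arrays lie closer to their mean for all but the Dgat2 probe sets.

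By level, the brighter Scd1 probe set had the highest mean signal of the members. Of the genes tested, the 5 whose log2 values followed it most closely over the 6 arrays were Mapk14 (r = 0.992), Tmem71 (0.992), Tbx15 (0.992), Man1a (0.989) and Adh1 (0.988). These are descriptions over 6 arrays, and 147 genes had an r over 0.9.

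The lipid genes around the members were read from lists in the fit over genes. Each count below stands beside the 14.8% of all genes tested that were called higher and the 16.3% called lower. Of 16 tested desaturase and elongation genes besides the members, 5 rose, 2 fell and 9 did not pass, with a median log2 difference of -0.04. Hsd17b12, the ketoreductase of the elongation cycle, rose by 0.67 ± 0.14, and the dehydratase Hacd1 by 0.45 ± 0.09. Without knock-in replicate 3, 3 of these rose. Those that fell, Scd2 and Fads6, numbered 1 without any array other than wild-type replicate 3, and 0 without that array. With median centring neither passed (limma, adjusted p = 0.0638 and 0.127), nor did Fads6 with quantile normalization (0.106).

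Of 16 tested genes that make and activate fatty acids, 0 rose and 1 fell, the acyl-CoA synthetase Acsl3 (-0.59 ± 0.14), and its call was lost when replicate 3 of either group was left out (adjusted p = 0.0588 and 0.0546). At an unadjusted p under 0.05, limma gave 1 higher and 3 lower. By the adjusted p, 1 rose without wild-type replicate 1, 2 without wild-type replicate 2 and 1 with median centring. The fatty acid synthase Fasn (-0.09) and the carboxylase Acaca (0.04), which supply the chains that Scd and Elovl enzymes modify, did not pass. Acot1 (-0.32) and Me1 (-0.27), a source of reducing power for synthesis, did not pass either (adjusted p = 0.0559 and 0.0576).

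Of 15 tested genes of glyceride, wax and steryl ester synthesis, 4 rose, 1 fell and 10 did not pass (median 0.05). Besides Far1 and Dgat1, the acyltransferase Agpat2 rose (0.44 ± 0.10), and the phosphatidate phosphatase Lpin3 fell (-1.07 ± 0.12), from a signal of 217 ± 22.0 to 95.2 ± 10.5. Leaving out knock-in replicate 3 left 2 higher, and leaving out wild-type replicate 3 gave 2 lower. Mogat1 and Mogat2, which also acylate glycerides, were below the filter, with mean signals of 26.8 and 6.00 in wild-type and 16.7 and 10.9 in knock-in.

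Of 19 tested genes of droplets and lipolysis, 9 rose, 2 fell and 8 did not pass, with a median log2 difference of 0.57. The 9 include Plin5, which passed the filter through the knock-in arrays alone. Hilpda, a droplet protein that inhibits lipolysis, rose from 100.2 ± 7.32 to 399 ± 19.9 (1.84 ± 0.10, adjusted p = 1.28e-05). The triglyceride lipase Pnpla2 rose by 0.92 ± 0.15 and its co-activator Abhd5 by 0.58 ± 0.10. Lpl, a lipase that acts on lipoproteins in blood, and Pnpla3 fell (-0.44 and -0.57). However, Pnpla3 did not pass without knock-in replicate 3 (adjusted p = 0.0503), nor Lpl with median centring (-0.31, adjusted p = 0.0583). The summed signal of the list ranged from 26552 to 31681 in wild-type and from 35970 to 38010 in knock-in. Its brightest genes, Fabp5 and Fabp4, did not pass in the fit of all 6 arrays (adjusted p = 0.0546 and 0.134). Fabp5 averaged 10396 ± 629 on wild-type arrays against 13381 ± 1894 on knock-in arrays, and Fabp4 7457 ± 1078 against 8858 ± 289. Much of the sum and of its rise was therefore from genes that were not called.

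Among 17 tested regulators of lipogenic transcription, 3 rose and 3 fell (median -0.14). These shares are near those of all genes tested, 14.8% higher and 16.3% lower. Cebpd, a differentiation factor of fat cells, rose by 1.21 ± 0.14. Insig1 and Insig2, which hold SREBP precursors in the endoplasmic reticulum, fell by 0.96 and 0.71, and Scap, which escorts them, rose by 0.67. Pparg, the regulator of sebocyte maturation, had 0.52 (adjusted p = 0.118) and passed without wild-type replicate 2 (0.75, adjusted p = 0.0229). Srebf1 (-0.18) did not pass. Without wild-type replicate 1, 5 of the regulators fell.

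Of 11 further tested markers of the gland, its duct and the junctional zone of the follicle, 1 rose and 5 fell (median -0.33). The follicle factor Sox9 fell by 0.78 ± 0.10, Atp6v1c2 by 0.57 ± 0.09 and Prdm1 by 0.73 ± 0.13, and the stem cell regulator Lrig1 by 0.54 ± 0.13. Lrig1 did not pass without knock-in replicate 1 (adjusted p = 0.0515) or with median centring (0.0669). Ceacam1 rose by 0.90 on its brightest probe set, and by 0.73 there without knock-in replicate 3 (adjusted p = 0.0126). Without that array another Ceacam1 probe set was the brightest, and it had 0.16 and did not pass, so the gene's probe sets disagree. Mgst1 (0.16), a sebocyte enzyme, and Krt7 (0.19) did not pass. Centred on each array's median, 3 of this list fell and 2 rose. All 10 tested hair shaft keratin and root sheath genes fell (median -1.81), and their summed signal ranged from 48851 to 63569 in wild-type and from 14491 to 28464 in knock-in. Of 8 suprabasal keratinocyte markers, 0 rose and 2 fell (0 and 3 at an unadjusted p under 0.05, limma), and 4 fell without knock-in replicate 1. The part of the follicle's change in the members' values was not tested.

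Of 11 other tested cytochrome P450 genes, 7 rose, 1 fell and 3 did not pass (median 0.68). Cyp26b1, which breaks down retinoic acid, rose by 1.36 ± 0.13 and Cyp2b10 by 1.08 ± 0.19. Cyp2b19, an arachidonate epoxygenase of differentiated keratinocytes, fell by 1.23 ± 0.10, from a signal of 221 ± 7.72 to 84.9 ± 1.94. Members of the Cyp2 family resemble each other in sequence, so their probe sets may read one another.

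**Figure D4:**
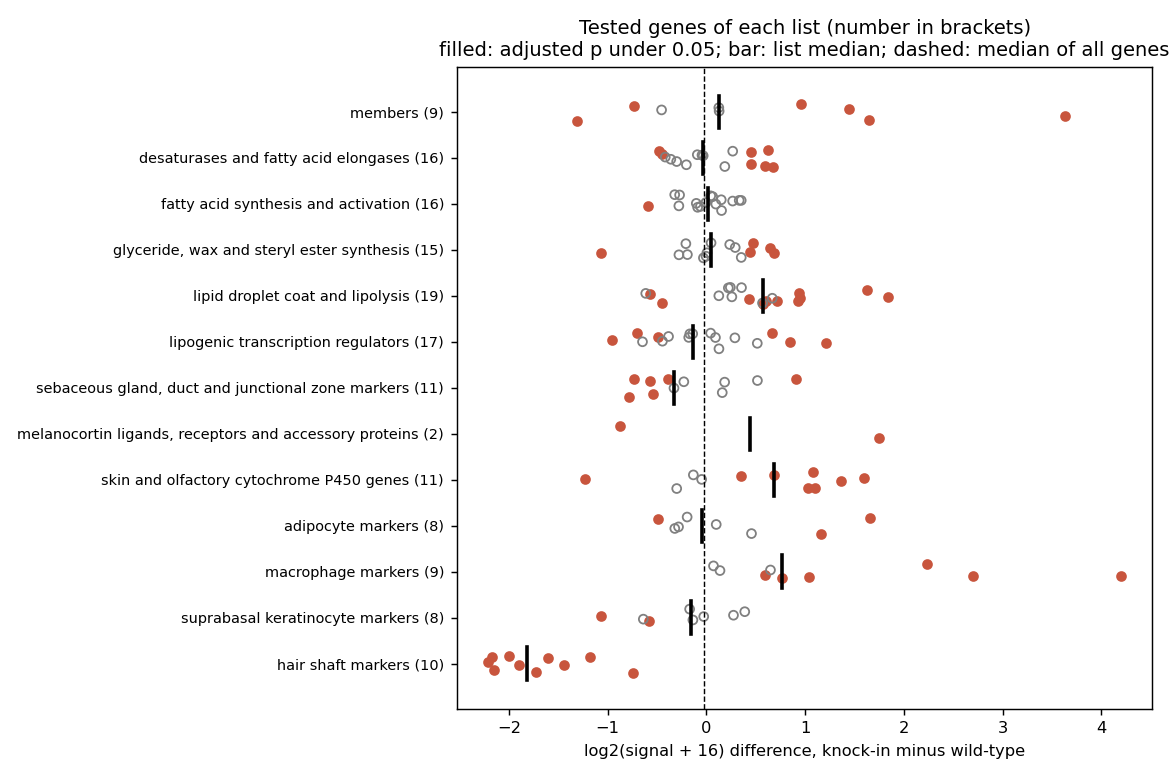
Log2(signal + 16) difference, knock-in minus wild-type, of each tested gene of the members and of the related lists (number tested in brackets), filled where the adjusted p was under 0.05. Black bars mark list medians, from -1.81 for hair shaft genes to 0.77 for macrophage markers, and the dashed line marks the median of all genes tested (-0.02).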

How the data were processed

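Per the submitters' processing notes the authors used MAS5, which gave 1 intensity for each probe set on each array, on a linear scale. No source used here states its version. The 2% trimmed mean of each array was 150, so no further scaling was applied, and the table has no detection calls. Of 45101 probe sets, 64 are controls. In the platform annotation 34945 have 1 gene symbol, 932 several and 9160 none.

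From the deposited intensity values, log2(signal + 16) was fitted in limma 3.58.1 (R 4.3.3; lmFit, then eBayes with trend = TRUE, two-sided), using Benjamini-Hochberg adjustment and a threshold of 0.05. A gene's brightest probe set stood for it, and genes or probe sets above the array's median on at least 3 arrays were kept. An offset of 16 understates changes of dim genes. The method was tested on simulated data. The 6 arrays limit the precision, and the median standard error was 0.131.

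Named were all members, their paralogues, the 5 genes most like the brightest member, and up to 4 genes per list by smallest p. Any other gene was picked with its values in view. The members, lists and tests were chosen with earlier results of these data known. The alternatives changed offset, filter, normalization, variance prior, array weights, probe set choice and replicate block, or left out an array.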

Additional observations from a re-analysis of the deposited data

How the results depend on the processing

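Over 17 alternatives the count of members higher in knock-in was 3 or 4 and the count lower was 2 or 3, and for member probe sets, under the alternatives that keep probe sets apart, both counts were 4 or 5. Plin2, Elovl3 and Scd3 passed the threshold under all 17, Cyp2g1 under the 16 in which it was tested (it was left out by the stricter filter), Dgat2 under 16, Far2 under 13, Mc5r under 6, Scd1 under 1 and Krt79 under 0. Far2 did not pass with the mean over probe sets (adjusted p = 0.0790) or the replicate block (0.0509), nor without knock-in replicate 1 or 3. The same-numbered replicates did not deviate together (correlations of deviations of -0.25, -0.41 and -0.02), so the numbers were not taken to pair the samples. With the replicate block 3 members were higher and 2 lower, and 1186 genes were higher and 1264 lower, against 1729 and 1907. Without knock-in replicate 3, 1011 genes were higher, without knock-in replicate 1, 1130, and without wild-type replicate 3, 1118 were lower. Centring each array on its median moved the median difference of all genes from -0.02 to 0.11, and of the genes called 68.1% (2564) were then higher and 1203 lower, against 47.6% higher. The members' counts stayed at 4 and 2 under that centring. Of 442 recomputed counts over the related lists, 59 moved by over 1.5 times, mostly counts of a few genes. Leaving out an array could change a gene's brightest probe set, which happened to none of the members and, among the other genes of the lists, to Acly, Ceacam1, Elovl4 and Insig2. In a fit that kept the probe set, chosen after seeing the data, no sign changed for these. Of 18 probe sets of paralogues called, 7 lost the call without some array, and 3 others fell below the filter. Genes near the background cannot be ranked, since the table has no detection calls.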
